A study of Mus musculus with 9 samples.

Results

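The comparison set RNA-seq counts of LSKs labelled NHD13/MSI2 against those of control LSKs. LSKs are the Lin-Sca1+Kit+ cells of the bone marrow, which hold the haematopoietic stem cells (HSCs) and the multipotent progenitors. The members were 7 of the 9 libraries of the series, 4 labelled NHD13/MSI2 and 3 control, chosen by their labels and column names, and the other 2 libraries came from NHD13 mice without the MSI2 transgene. Control marrow came from C57BL/6 mice. The NHD13/MSI2 donors carried Vav-Tg-NUP98-HOXD13, a fusion transgene driven by the Vav regulatory elements and hence in blood cells, together with KH2-Col1A1-tet-on-MSI2 and ROSA26-rTTA, so that doxycycline induces MSI2. Marrow of every group was transplanted into irradiated congenic recipients, and the LSKs were taken once the recipients had been on doxycycline for 3 months, as the methods give it without setting any group apart. The labels give 4 months as the age and C57BL/6 as the strain of all libraries. The paper places the LSKs at 4 months after transplantation, from primary donors aged 3 to 4 months. Whether the labelled age counts from birth or from transplantation is not stated. Helper marrow was given with each graft, and the labels do not say whether the sorted LSKs were gated on donor origin or whether a library was pooled from several mice. The library name of control replicate 1 holds the word Bulk and those of control replicates 2 and 3 the words MPP HSC, with LSK as the cell type of all 3, and whether their sorts differed is not stated.

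In normal LSKs a small group of HSCs is kept quiescent and self-renewing by factors such as Hlf, Meis1, Mecom and Prdm16, and the multipotent progenitors around them begin to express genes of single lineages. NUP98-HOXD13 joins a nucleoporin to a homeodomain and is known for raising the Hoxa genes and for causing a myelodysplastic syndrome that can progress to acute leukaemia. MSI2 is an RNA-binding protein of stem cells and leukaemias that acts on the translation and stability of its target messages.

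The libraries held 19625590 to 23013493 counts on named genes, and no 2 libraries of a group were alike within sampling noise. Replicate 4 of the libraries labelled NHD13/MSI2 stood apart, with 11.25% of its counts in its 10 most abundant genes against 5.74 to 8.12% in the other 6 libraries and a scaling factor of 0.785 against 0.969 to 1.09. Levels are given in CPM, counts scaled to library size with factors from the trimmed mean of M-values (TMM). Fold changes, their standard errors (SE) and p-values come from edgeR (quasi-likelihood test, Benjamini-Hochberg adjustment over the 13355 genes tested), and a gene is called at an adjusted p under 0.01. Nothing in the labels states that the libraries of a group came from separate mice, so the p-values measure the spread between libraries, which may be technical. In sorted bulk RNA, fewer cells of a type and less RNA per cell cannot be told apart.

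The targeted genes were examined first. Control replicates 1 to 3 held Msi2 at 223, 316 and 266 CPM, against 88.0, 77.1, 82.8 and 241 CPM in replicates 1 to 4 of the libraries labelled NHD13/MSI2. Only replicate 4 reached the control range. The log2 fold change was −1.13 (SE 0.39, edgeR adjusted p = 0.0688), and without replicate 4 it was −1.69 (edgeR adjusted p = 0.000138). Msi2 was thus not higher in these libraries, every direction given below rests on their label, and how far reads of the transgene aligned to the mouse gene was not tested. Hoxd13, whose homeodomain the fusion carries, had 0 counts in each control library and 0.648 to 1.13 CPM in the labelled libraries, at least 7.10-fold higher against a floor of 3 counts per library (edgeR adjusted p = 0.0026). This call was lost without control replicate 1 or 3 (edgeR adjusted p = 0.0101 and 0.0105). Nup98 was at 213 to 230 CPM in control and at 221 to 237 CPM in labelled replicates 1 to 3, but at 1004 CPM in replicate 4. Xist, the RNA of the inactive X chromosome, reached 888 and 866 CPM in control replicate 1 and control replicate 3, and 2.33 CPM or less in control replicate 2 and all labelled libraries. Sex and group therefore cannot be fully told apart. With control replicate 2 as the only control 95 genes were called, 43 higher and 52 lower, all 95 among those called with all libraries.

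Against control, 1474 genes were called (11.0% of those tested), 599 higher (4.49%) and 875 lower (6.55%). The losses were larger than the gains. The median log2 fold change was −3.98 among the lower genes and 1.75 among the higher, and 649 lower genes against 267 higher ones changed more than 4-fold. In 103 of the lower genes all 4 labelled libraries were at 0 counts, and in 13 of the higher genes all 3 control libraries were. The 2 groups did not overlap in 35.7% of all genes tested (15.3% with the labelled libraries higher, 20.4% with them lower), nor in any of the 1474 called genes. The number of calls depended on the libraries in the fit: it was 703, 753 and 647 without control replicate 1, 2 or 3, 1017, 971 and 1054 without labelled replicate 1, 2 or 3, and 2066 without replicate 4. Prr36 was the last gene inside the threshold, at 2.99 to 5.19 CPM in control and 1.05 to 1.75 CPM in the labelled libraries, and Mob3c the first outside, at 28.5 to 31.8 and 11.9 to 20.3 CPM.

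**Figure D1:**
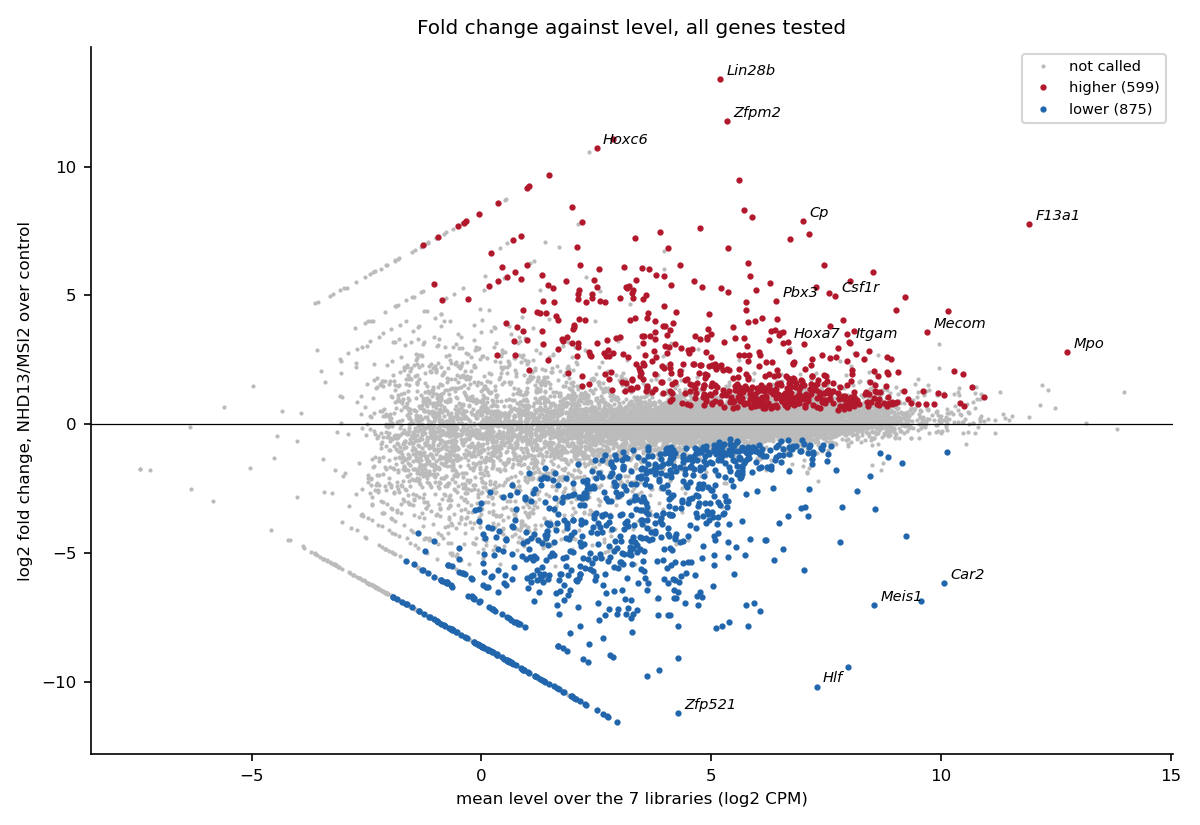
Log2 fold change over control in the labelled NHD13/MSI2 libraries (vertical axis) against the mean level over the 7 libraries in log2 CPM (horizontal axis), 1 point for each of the 13355 genes tested. The 599 genes called higher are red, the 875 called lower are blue and the rest grey, and the blue points reach further from 0 than the red at most levels, with Hlf, Meis1 and Zfp521 far below and Lin28b, Zfpm2 and F13a1 far above.

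Genes named for the size of their rise were at or close to 0 in control. Lin28b, an RNA-binding protein of fetal haematopoiesis (chromosome 10, 45376620 to 45486395, minus strand, GRCm38), had 0 counts in each control library and stood at 56.3, 50.6, 67.8 and 81.3 CPM in labelled replicates 1 to 4. That is at least 499-fold higher (edgeR adjusted p = 2.67e-05), and the 2 NHD13 libraries were as high, at 58.5 and 110 CPM. Zfpm2, a cofactor of GATA proteins known from heart development, had 1 count over the 3 control libraries and 58.2 to 96.6 CPM in the labelled ones, a ratio of 4847 with a 95% counting interval of 869.6 to 1.92e+05 (edgeR adjusted p = 4.56e-06). Both genes were named by a rule that required no overlap between the groups. The homeobox gene Hoxc6 was at 0 in control and at 6.75 to 13.03 CPM in the labelled libraries, at least 77.4-fold higher (edgeR adjusted p = 0.000243). Lhx2, a LIM homeobox factor of stem cells in several tissues, reached 4.66 to 9.43 CPM from a single control count (edgeR adjusted p = 0.000139).

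Further genes rose from below 1.5 CPM. Cp, the plasma ferroxidase ceruloplasmin, went from 1.27, 0.949 and 0.56 CPM in control to 224, 230, 247 and 186 CPM (log2 fold change 7.90, SE 0.32, edgeR adjusted p = 4.56e-06). Camkv, a kinase-like protein of neurons, went from 0.12 to 0.491 CPM to 64.8 to 133 CPM (log2 fold change 8.30, SE 0.48, edgeR adjusted p = 1.74e-05). Tdrd9, a helicase of the piRNA pathway of the germ line, went from 0.04 to 0.759 CPM to 92.9 to 108 CPM (log2 fold change 8.03, SE 1.05, edgeR adjusted p = 0.000862), while the 2 NHD13 libraries were at 12.004 and 0.593 CPM. Rd3l lies within the span of Tdrd9 on the opposite strand, so its rise from a total of 2 control counts cannot be told apart from Tdrd9 reads if counting ignored strand. Each of the 7 genes named above apart from Rd3l kept its call in all 9 fits that left out 1 library, whereas Rd3l lost it without any 1 control (edgeR adjusted p = 0.0118, 0.0107 and 0.012 without control replicate 1, 2 or 3).

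The genes lost most were at 0 or close to it in all 4 labelled libraries. Zfp521, a zinc finger cofactor of immature haematopoietic cells, was at 55.5, 36.6 and 42.6 CPM in control and had 1 count over the 4 labelled libraries, a ratio of 3483 with a 95% counting interval of 625 to 1.38e+05 (edgeR adjusted p = 6.47e-06). Fam171a1 (8.97 to 20.8 CPM in control), Cdcp1, a transmembrane substrate of Src kinases (8.26 to 19.7 CPM), and Plod2, a collagen lysyl hydroxylase (10.8 to 15.5 CPM), had no count in any labelled library, which makes them at least 97.7-, 92.2- and 83.4-fold lower. Prkaa2, a catalytic subunit of the energy sensor AMPK, Cyp7b1, an oxysterol hydroxylase, and Myo1d, an unconventional myosin, were also at 0 and at least 71.4-, 70.5- and 64.9-fold lower. Mmp2, a gelatinase, fell from 6.62 to 10.4 CPM to 0, at least 57.2-fold, and had 0.092 and 0 CPM in the NHD13 libraries. All 8 kept their call in each fit that left out 1 library, with an edgeR adjusted p of 6.47e-06 to 0.00134 with all libraries. Lipo1, at 0 in all labelled libraries as well, belongs to a family of near-identical lipase genes, and its counts may be split among them.

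More stem cell genes fell than rose. Of 24 HSC genes tested, 13 were called lower and 1 higher, beside 6.55% and 4.49% of all genes, and the median log2 fold change was −2.83 against −0.011 over all genes. Hlf, a PAR bZIP factor of HSCs (chromosome 11, 90336536 to 90390895, minus strand), was at 332, 284 and 477 CPM in control and at 0.155, 0.0499, 0.317 and 0.779 CPM in the labelled libraries. Every labelled library was below 1 CPM, and the fitted fall was 1173-fold (log2 fold change −10.20, SE 0.63, edgeR adjusted p = 2.07e-05). Meis1, the homeodomain partner of Hox proteins (chromosome 11, 18879817 to 19018985, minus strand), went from 1015, 705 and 863 CPM to 6.41, 4.24, 4.16 and 11.7 CPM (log2 fold change −7.03, SE 0.55, edgeR adjusted p = 6e-05).

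The NHD13 libraries stood between these levels, at 26.1 and 10.03 CPM for Hlf (log2 fold change over control −4.33, edgeR adjusted p = 0.00631) and at 523 and 158 CPM for Meis1 (−1.34, edgeR adjusted p = 0.323). Other members of the list are found at the cell surface or in signalling. Fgd5, a guanine exchange factor used as an HSC reporter, went from 7.26 to 11.8 CPM to at most 0.13 CPM (log2 fold change −7.12, SE 0.55, edgeR adjusted p = 6e-05), and Tek, the angiopoietin receptor, from 18.2 to 71.1 CPM to at most 1.49 CPM (−6.77, SE 1.02, edgeR adjusted p = 0.00177). Clec1a, a C-type lectin receptor, was at 18.2 to 50.01 CPM in control and at most at 0.588 CPM in the labelled libraries (−6.74, SE 0.58, edgeR adjusted p = 0.00011). As in every called gene, none of these labelled libraries reached the control range.

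Ifitm1, an interferon-inducible membrane protein of HSCs, fell with the least spread of the list, from 168, 171 and 226 CPM to 13.7, 12.9, 14.8 and 10.6 CPM (log2 fold change −3.85, SE 0.17, edgeR adjusted p = 4.56e-06), and was at 74.7 and 75.7 CPM in NHD13. Prdm16, a chromatin factor needed for HSC maintenance (−4.87), Mllt3, a partner of the elongation machinery (−5.15), Esam, an endothelial adhesion molecule on HSCs (−3.62), Pdzk1ip1 (−3.47) and Trim47 (−3.92) were all called lower, and so was Procr, the protein C receptor that marks HSCs, by the least of the 13 (−1.81, edgeR adjusted p = 0.000875). Slamf1, the CD150 antigen of the HSC gate, was lower as well (−5.06, edgeR adjusted p = 0.00559) but lost its call without any 1 control or without labelled replicate 1 or 2 (edgeR adjusted p = 0.0234, 0.016, 0.0142, 0.017 and 0.0137). In every fit that left out 1 library 12 or 13 members were called lower, and with control replicate 2 as the only control 5 were.

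**Figure D2:**
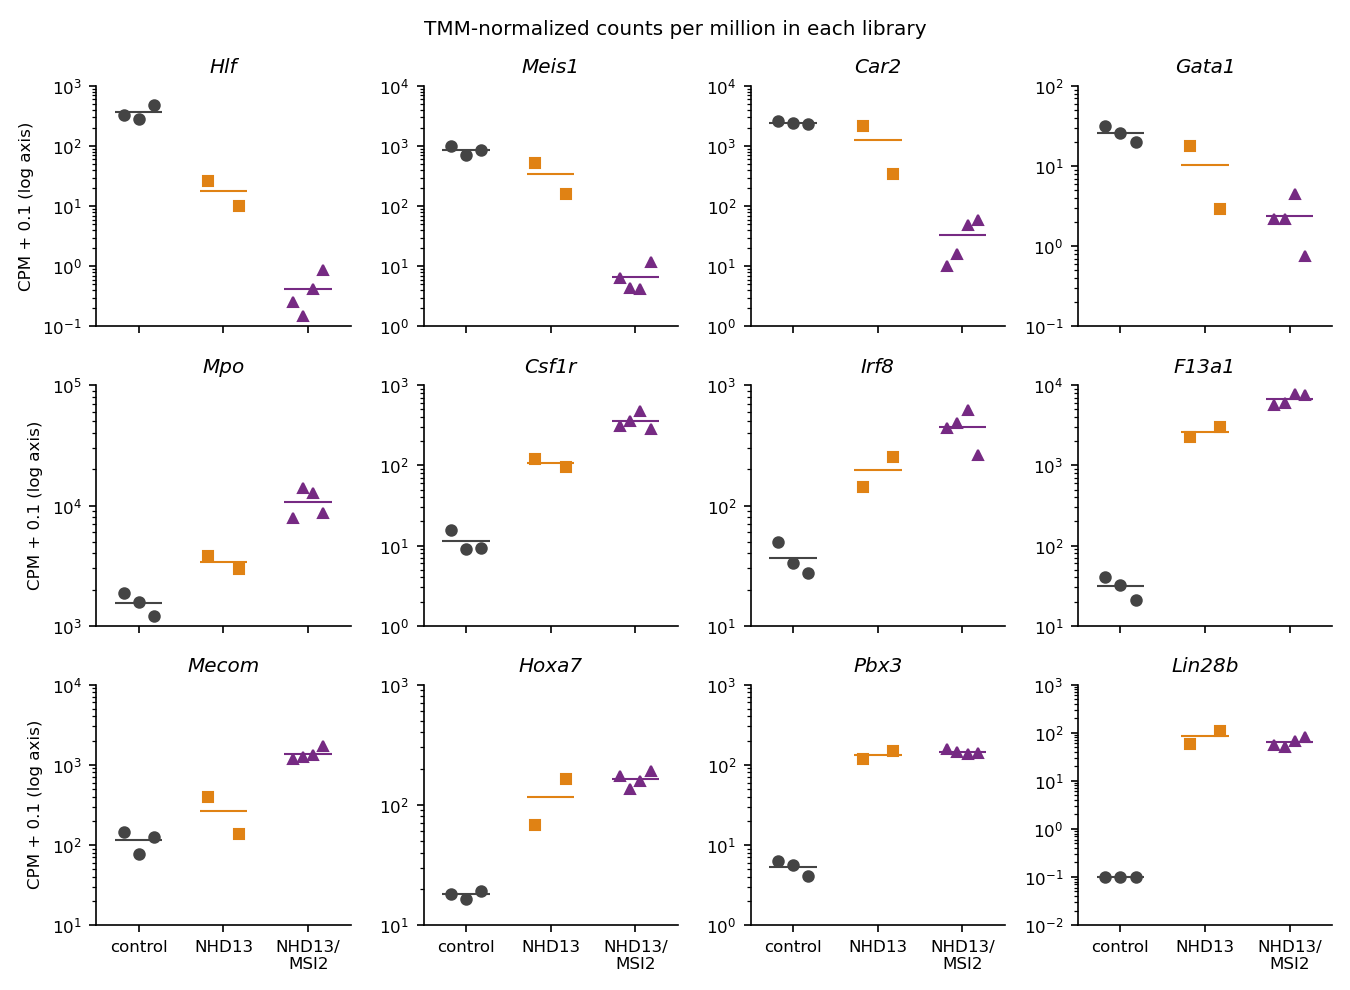
TMM-normalized CPM plus 0.1 on a log axis for 12 genes, 1 point per library (circles, 3 control; squares, 2 NHD13; triangles, 4 labelled NHD13/MSI2) with group means as lines. Hlf, Meis1, Car2 and Gata1 are far lower in the labelled libraries than in control, and Mpo, Csf1r, Irf8, F13a1, Mecom, Hoxa7, Pbx3 and Lin28b are higher. The labelled and control points overlap for none of the 12, as for every called gene.

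Mecom was the HSC gene that went the other way. It encodes the EVI1 and MDS1-EVI1 zinc finger factors (chromosome 3, 29951296 to 30548008, minus strand) and stood at 144, 76.8 and 125 CPM in control and at 1187, 1239, 1337 and 1700 CPM in the labelled libraries. The groups did not overlap, as for every called gene, and the NHD13 libraries were near or above the control range, at 397 and 136 CPM. The log2 fold change was 3.57 (SE 0.40, edgeR adjusted p = 0.000421), kept in each fit that left out 1 library. Gata2, a regulator of HSCs and early progenitors, was among the 10 members that did not pass the test (log2 fold change −0.19, edgeR adjusted p = 0.572). Erg, another such regulator but counted among the cofactors and self-renewal factors below, did not pass either (−0.38, edgeR adjusted p = 0.066).

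Imprinted and quiescence genes were described as further lists of the stem cell state. Of 8 imprinted genes tested, 3 were called lower (37.5%) and none higher, beside 6.55% and 4.49% of all genes (median log2 fold change −2.88). Grb10, an adaptor that dampens growth factor signals, fell from 67.2 to 118 CPM to 0.0517 to 1.13 CPM (log2 fold change −7.67, SE 0.84, edgeR adjusted p = 0.000348), and Igf2r, the clearance receptor of insulin-like growth factor 2, fell from 13.1 to 33.9 CPM to 0.26 to 2.38 CPM (−4.41, SE 0.64, edgeR adjusted p = 0.00147). Ndn, which restrains HSC cycling, was at 3.89 to 15.6 CPM in control and at 0 in all labelled libraries, at least 50.7-fold lower (edgeR adjusted p = 0.00282), but the call was lost without control replicate 1 or 3 (edgeR adjusted p = 0.0106 and 0.0126). Among 18 quiescence genes, only Ndn and Tgfbr2, a TGF-beta receptor chain (−1.65, edgeR adjusted p = 0.00669), were called. Both were lower (11.1%, beside 6.55% of all genes). The count of lower quiescence genes was 0 without control replicate 1 or 3, and 1 without control replicate 2 or labelled replicate 1, 2 or 4.

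Hox genes were gained in part. Of 9 Hoxa genes tested 4 were called higher (44.4%) and 1 lower (11.1%), beside 4.49% and 6.55% of all genes. The median log2 fold change was 1.21 (1.35 in NHD13 over control). Hoxa7 (chromosome 6, 52214491 to 52221854, minus strand) rose most, from 18.1, 16.4 and 19.2 CPM to 174, 136, 156 and 190 CPM, with the NHD13 libraries at 68.3 and 164 CPM. Its log2 fold change was 3.20 (SE 0.30, edgeR adjusted p = 0.000166). Hoxa9, the Hox gene most tied to myeloid leukaemia, rose from 72.8 to 104 CPM to 166 to 210 CPM (log2 fold change 1.16, SE 0.19, edgeR adjusted p = 0.00265), and Hoxa5 and Hoxa3 rose by 1.40 and 1.30.

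Hoxa10 went against its neighbours. It fell from 25.5, 29.6 and 33.4 CPM to 1.29, 2.29, 1.40 and 1.69 CPM (log2 fold change −4.14, SE 0.54, edgeR adjusted p = 0.000835), and the NHD13 libraries were at 22.9 and 3.75 CPM. The annotated span of Hoxa3 contains Hoxa5, so reads on shared exons may not be assigned to either. The calls of Hoxa7 and Hoxa10 were kept in all 9 fits that left out 1 library. Those of Hoxa3 and Hoxa5 were lost without any 1 control (edgeR adjusted p = 0.0223, 0.0217 and 0.0113 for Hoxa3 and 0.0167, 0.0146 and 0.0165 for Hoxa5 without control replicate 1, 2 or 3), that of Hoxa3 also without labelled replicate 1 (edgeR adjusted p = 0.0112), and that of Hoxa9 without control replicate 1 or 2 (edgeR adjusted p = 0.017 and 0.0166), so the count of higher Hoxa genes was 1, 1 and 2 without control replicates 1, 2 and 3.

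In the Hoxb cluster 2 of 7 genes tested were higher (28.6%) and 1 lower (14.3%), beside 4.49% and 6.55% of all genes. Hoxb7 rose from 0.04 to 0.617 CPM to 12.2 to 16.6 CPM (log2 fold change 5.27, SE 0.62, edgeR adjusted p = 0.000499) and Hoxb8 from 0 to 1.81 to 7.33 CPM, at least 26.9-fold (edgeR adjusted p = 0.00182). Both were as high in NHD13, at 14.7 and 25.3 CPM for Hoxb7 and at 2.25 and 3.31 CPM for Hoxb8. Hoxb2, at 1.68 to 2.09 CPM in control and at 0 in NHD13 and labelled libraries, was at least 11.8-fold lower (edgeR adjusted p = 0.00475), a call that was lost without any 1 control (edgeR adjusted p = 0.0246, 0.0236 and 0.023).

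Among the cofactors of Hox proteins a gain stood beside losses. Pbx3, a TALE homeodomain cofactor of Hoxa9 (chromosome 2, 34171457 to 34373142, minus strand), rose from 6.17, 5.55 and 4.00 CPM to 156, 143, 137 and 141 CPM (log2 fold change 4.78, SE 0.20, edgeR adjusted p = 4.56e-06). NHD13 was near that level, at 119 and 149 CPM.

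Of 20 cofactors and self-renewal factors of leukaemia tested, 2 were called higher (10%), Pbx3 among them, and 3 lower (15%), among them Meis1 and Mycn. The shares over all genes were 4.49% and 6.55%. Mycn, a Myc family factor of HSCs, was at 24.8 to 41.1 CPM in control and at 2.40 to 8.82 CPM in the labelled libraries (−2.76, SE 0.43, edgeR adjusted p = 0.00198), whereas NHD13 was above control at 132 and 60.0 CPM. The higher cofactors numbered 1 without any 1 control or labelled replicate 1, 2 or 3.

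Part of the genes of granulocyte-monocyte progenitors (GMPs) rose. Of 22 tested, 7 were called higher (31.8%) and none lower, beside 4.49% and 6.55% of all genes. The median log2 fold change was 1.22 (0.57 in NHD13 over control). The summed level of the list was 2337 to 3225 CPM in control, 7630 to 7941 CPM in NHD13 and 16607 to 24296 CPM in the labelled libraries. Mpo, the myeloperoxidase of primary granules (chromosome 11, 87793581 to 87804413, plus strand), rose from 1862, 1589 and 1195 CPM to 7845, 13878, 12793 and 8648 CPM. Its log2 fold change was 2.80 (SE 0.29, edgeR adjusted p = 0.000254), and the lowest labelled library was well above the highest control. F13a1, the coagulation factor XIII A chain of monocytes, rose from 40.0, 32.3 and 20.9 CPM to 5609, 5944, 7774 and 7523 CPM (log2 fold change 7.75, SE 0.35, edgeR adjusted p = 4.56e-06), with NHD13 at 2240 and 2975 CPM.

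Csf1r and Irf8, known from the monocyte branch, were called as well. Csf1r, the M-CSF receptor, went from 15.5, 9.02 and 9.20 CPM to 309, 359, 473 and 281 CPM (log2 fold change 4.98, SE 0.31, edgeR adjusted p = 2.07e-05), with NHD13 in between at 122 and 94.9 CPM. Irf8, which drives monocyte and dendritic fates, went from 27.5 to 49.5 CPM to 263 to 618 CPM (3.63, SE 0.38, edgeR adjusted p = 0.000268). Cebpa, the factor that opens the granulocyte-monocyte path, went from 2.60 to 4.46 CPM to 10.7 to 19.7 CPM (2.17, SE 0.31, edgeR adjusted p = 0.00136), and Hk3, a hexokinase of myeloid cells, rose by 2.08. These genes kept their calls in each fit that left out 1 library.

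Csf2rb, the common beta chain of the GM-CSF and IL-3 receptors, was the seventh (1.86, edgeR adjusted p = 0.00568), and it shares reads with its near-identical copy Csf2rb2 (2.66, edgeR adjusted p = 0.00047), so the split between them is uncertain. Its call was lost without any 1 control or without labelled replicate 3 (edgeR adjusted p = 0.0251, 0.0296, 0.0293 and 0.0134). The other 15 members did not pass the test, among them Klf4, a monocyte factor (−4.15, edgeR adjusted p = 0.0532), Ccr2, a chemokine receptor of monocytes (2.68, edgeR adjusted p = 0.0123), and the granule proteases. Elane was at 90.1 to 188 CPM in control and at 49.97 to 153 CPM in the labelled libraries (−0.39, edgeR adjusted p = 0.572), Ctsg at 23.8 to 64.0 and 36.1 to 100 CPM (0.67, edgeR adjusted p = 0.291), and Prtn3 at 192 to 252 and 193 to 758 CPM (1.26, edgeR adjusted p = 0.0459). For Prtn3 and for Spi1, the gene of PU.1 (1.52, edgeR adjusted p = 0.0622), labelled replicate 4 was in or below the control range, and without it both were called (edgeR adjusted p = 0.000179 and 0.000154), as the higher GMP genes went from 7 to 10.

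The promoters of Mpo, Prtn3 and Elane are shown because they hold the same PU.1 motif, GAGGAAGT, while their genes differed in response. Each line gives the 250 bases upstream of the start of the gene (RefSeq, GRCm38.p6, 5′ to 3′ on the strand of the gene, plus strand for all 3), with the motif in capitals. The regions are chr11:87793534-87793783 for Mpo, chr10:79879417-79879666 for Prtn3 and chr10:79886062-79886311 for Elane.
Mpo: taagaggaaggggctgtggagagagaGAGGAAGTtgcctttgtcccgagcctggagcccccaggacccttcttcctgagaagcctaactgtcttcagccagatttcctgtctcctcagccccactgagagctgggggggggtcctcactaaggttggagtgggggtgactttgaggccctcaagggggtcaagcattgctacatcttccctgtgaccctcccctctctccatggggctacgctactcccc
Prtn3: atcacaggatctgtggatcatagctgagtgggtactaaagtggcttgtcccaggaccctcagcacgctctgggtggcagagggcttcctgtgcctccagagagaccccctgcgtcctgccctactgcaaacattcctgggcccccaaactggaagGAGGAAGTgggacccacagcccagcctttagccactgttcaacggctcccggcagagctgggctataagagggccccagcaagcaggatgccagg
Elane: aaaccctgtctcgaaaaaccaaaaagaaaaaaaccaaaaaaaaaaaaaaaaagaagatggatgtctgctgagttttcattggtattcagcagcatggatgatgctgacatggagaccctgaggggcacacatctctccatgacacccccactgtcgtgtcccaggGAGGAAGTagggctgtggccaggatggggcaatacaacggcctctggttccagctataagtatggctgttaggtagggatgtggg
Read on both strands, the motif was in 5 of the 18 GMP genes with a promoter in the table and in 3.2% of all 32851 promoters of the same length, which run from 250 bases before to 50 after the start. Here and below a gene of a list counts if any of its promoters holds a match. Shares of all promoters count each promoter, so the units differ. The PU.1 motif lies upstream of the start in the promoters shown. This motif begins 224 bases before the RefSeq start in Mpo, 95 in Prtn3 and 85 in Elane. The GENCODE start of Mpo given above lies inside the region shown, so part of that sequence is upstream by RefSeq only. The C/EBP motif TTGCNNAA was in 3 of the 18 and in 10.8% of all promoters.

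The late granule genes were a list of their own. Of 12 late neutrophil genes none was called by edgeR, also in each fit that left out 1 library, while 7 were lower at an unadjusted p under 0.05 and DESeq2 called 3 lower. Their median log2 fold change was −1.69. Of 4 eosinophil genes none was called by edgeR or DESeq2, and 3 were lower at an unadjusted p under 0.05. The secretory granule protein Ltf was at 184, 361 and 148 CPM in control and at 80.7, 51.9, 96.7 and 21.0 CPM in the labelled libraries (−1.88, edgeR adjusted p = 0.0378), and the alarmin S100a8 at 134 to 415 and 12.3 to 112 CPM (−1.71, edgeR adjusted p = 0.135). Among 8 mast cell and basophil genes, Cpa3, the mast cell carboxypeptidase, fell from 28.6, 46.9 and 11.2 CPM to 2.12, 2.49, 3.35 and 2.01 CPM (−3.53, SE 0.46, edgeR adjusted p = 0.000857). Fcer1a, a chain of the IgE receptor, was at 1.40 to 3.94 CPM in control and at 0 in the labelled and NHD13 libraries (at least 17.2-fold lower, edgeR adjusted p = 0.00479), a call lost without any 1 control (edgeR adjusted p = 0.0251, 0.0236 and 0.0151).

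Most erythroid genes fell. Of 15 tested, 9 were called lower (60%) and 1 higher (6.67%), beside 6.55% and 4.49% of all genes. The median log2 fold change was −3.08 (−0.75 in NHD13 over control, none called). The summed level of all 20 genes of the list, tested or not, fell from 2676 to 3122 CPM in control to 239 to 378 CPM. Car2, carbonic anhydrase 2, made up most of that sum, and went from 2632, 2393 and 2296 CPM to 10.2, 16.2, 48.7 and 59.6 CPM (log2 fold change −6.18, SE 0.80, edgeR adjusted p = 0.000845), with NHD13 at 2202 and 340 CPM. Tal1, a bHLH factor of HSCs and erythroid cells, fell from 16.3 to 23.1 CPM to 0.519 to 1.72 CPM (−3.98, SE 0.41, edgeR adjusted p = 0.000277).

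For each of these genes, as for every gene called lower, the labelled libraries were all below the lowest control. The calls of Car2 and Tal1 were kept when any 1 library was left out. Gata1, the main factor of the erythroid and megakaryocytic lineages, fell from 31.6, 26.0 and 19.95 CPM to 2.07, 2.09, 4.34 and 0.649 CPM (−3.48, SE 0.67, edgeR adjusted p = 0.00594), and lost its call without any 1 control or without labelled replicate 1 or 2 (edgeR adjusted p = 0.0239, 0.0202, 0.0162, 0.0197 and 0.0203). Klf1, its partner in red cells, was at 2.66 to 5.98 CPM in control and at 0.449 to 2.13 CPM in the labelled libraries and did not pass the test (−1.85, edgeR adjusted p = 0.0963). Tfrc, the transferrin receptor of all dividing cells, was the higher gene (1.02, edgeR adjusted p = 0.00866), and its call was kept only without control replicate 2 or labelled replicate 2 or 4. The count of lower erythroid genes was 4, 4 and 5 without control replicate 1, 2 or 3, 5 without labelled replicate 1 or 2, and 7 to 9 in the other fits. The GATA letters AGATAA, read on both strands, were in 5 of the 14 erythroid genes with a promoter in the table and in 11.2% of all promoters.

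The megakaryocyte list was mixed. Of 16 genes tested, 4 were called lower (25%) and 1 higher (6.25%), beside 6.55% and 4.49% of all genes. The median log2 fold change was −1.87, and 0.58 in NHD13 over control. Itga2b, the CD41 integrin chain, fell from 47.8 to 109 CPM to 4.48 to 18.4 CPM (−3.00, SE 0.57, edgeR adjusted p = 0.00542). Selp, the P-selectin of platelets and endothelium, rose from 158, 159 and 67.4 CPM to 822, 656, 649 and 842 CPM (2.53, SE 0.42, edgeR adjusted p = 0.00268).

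Platelet products stayed undecided. Vwf was at 75.0, 15.2 and 13.2 CPM in control and at 7.20 to 11.8 CPM in the labelled libraries (−1.80, edgeR adjusted p = 0.155), and Pf4 at 9.56 to 27.0 and 1.62 to 12.7 CPM (−1.18, edgeR adjusted p = 0.389). Without any 1 control, or without labelled replicate 1, the lower megakaryocyte genes numbered 1, and without labelled replicate 2 or 3 they numbered 2. Itga2b then had an edgeR adjusted p of 0.0233, 0.0201 and 0.0101 without control replicates 1, 2 and 3 and of 0.0185 and 0.0191 without labelled replicates 1 and 2, and Selp had 0.0118, 0.0109 and 0.0101 without control replicates 1, 2 and 3. The higher members numbered 2 without labelled replicate 4.

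**Figure D3:**
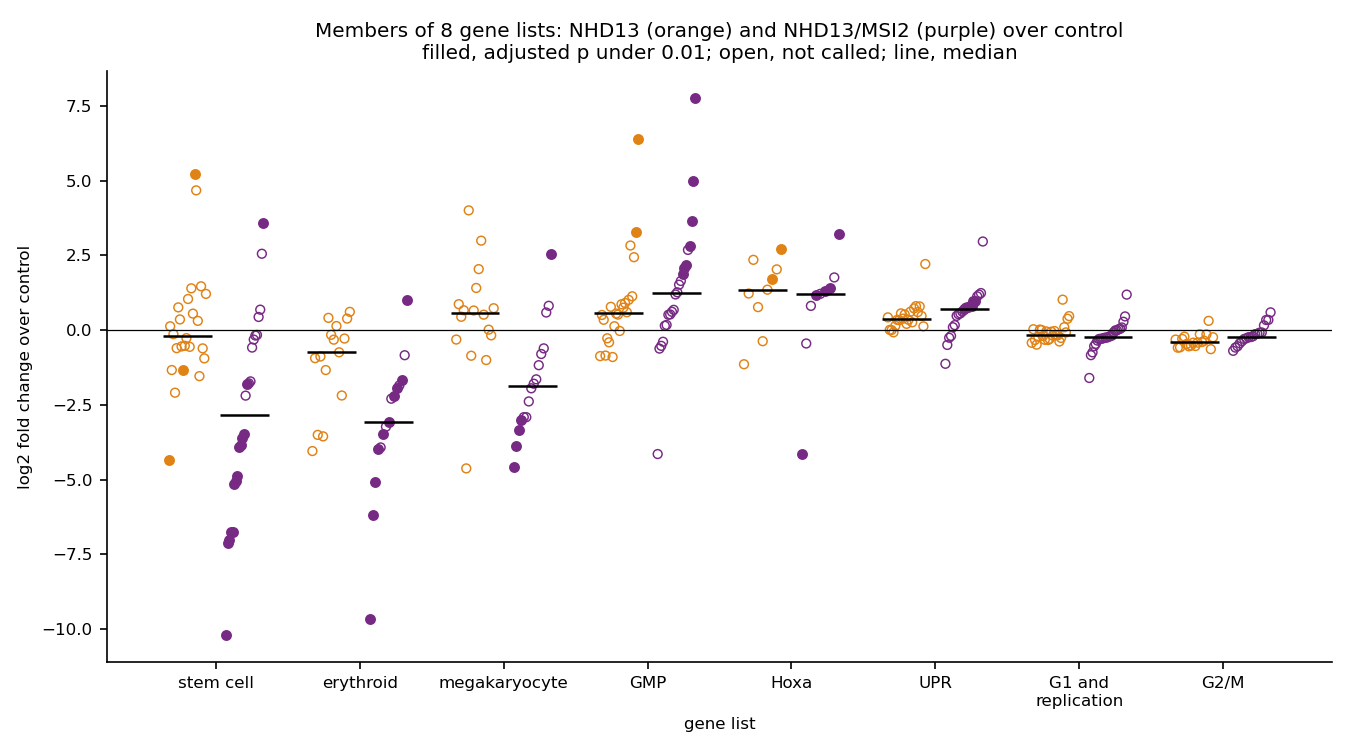
Log2 fold change over control of the members of 8 gene lists in the NHD13 libraries (orange) and in the libraries labelled NHD13/MSI2 (purple), with both comparisons sharing the 3 control libraries. Filled points passed an adjusted p under 0.01, open points did not, and black lines are medians, which for the labelled libraries lie at −2.83 for stem cell genes, −3.08 for erythroid genes and −1.87 for megakaryocyte genes, above 0 for GMP, Hoxa and unfolded protein response (UPR) genes and close to 0 for the cell cycle lists.

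Lymphoid genes moved in both directions. Of 19 lymphoid priming genes 3 were called higher (15.8%) and 2 lower (10.5%), beside 4.49% and 6.55% of all genes. Flt3, the receptor of lymphoid-primed progenitors, fell from 586, 581 and 674 CPM to 128, 104, 206 and 171 CPM (log2 fold change −2.01, SE 0.37, edgeR adjusted p = 0.00497), and lost its call without any 1 control or without labelled replicate 1 or 2 (edgeR adjusted p = 0.0175, 0.0173, 0.0211, 0.0184 and 0.017). Lax1, a transmembrane adaptor of lymphocytes, fell from 34.9 to 58.5 CPM to 4.48 to 7.65 CPM (−3.06, SE 0.30, edgeR adjusted p = 0.000217). In the other direction, Lsp1, an actin-binding protein of leukocytes, was at 194 to 196 CPM in control and at 710 to 872 CPM in the labelled libraries (2.03, SE 0.14, edgeR adjusted p = 3.42e-05), and Satb1, a chromatin organizer of lymphoid progenitors, at 56.7 to 85.9 and 223 to 320 CPM (1.86, SE 0.22, edgeR adjusted p = 0.000568). Lax1, Lsp1 and Satb1 kept their calls in each fit that left out 1 library. The 2 lower genes were 1 without any 1 control or without labelled replicate 1 or 2, and 3 without labelled replicate 3 or either NHD13 library. The 3 higher genes were 5 without labelled replicate 4 and 2 without any other 1 library.

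Some B cell genes rose. Of 14 tested, 5 were called higher (35.7%) and none lower, beside 4.49% and 6.55% of all genes (median log2 fold change 1.12). Cd79a, the signalling chain of the B cell receptor, went from 3.11, 0.285 and 0.36 CPM to 261, 172, 125 and 177 CPM (log2 fold change 7.17, SE 1.36, edgeR adjusted p = 0.00536), with NHD13 at 37.0 and 0.593 CPM. Fcer2a, the low-affinity IgE receptor CD23, went from 0.16 to 0.38 CPM to 20.3 to 34.9 CPM (6.85, SE 0.82, edgeR adjusted p = 0.00057), and Cd79b from 45.2 to 49.7 CPM to 133 to 174 CPM (1.67, SE 0.13, edgeR adjusted p = 7.59e-05). As for every called gene, the groups did not overlap for any of the 3.

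Pax5, the commitment factor of B cells, was low, with 3 counts over the control libraries and 1.86 to 3.84 CPM in the labelled ones (a ratio of 67.3 with a 95% counting interval of 22.7 to 329, edgeR adjusted p = 0.00283). Cd79b and Fcer2a kept their calls whichever library was left out. Cd79a lost it without any 1 control or labelled replicate 1, 2 or 3 (edgeR adjusted p = 0.0106 to 0.0286), Pax5 without control replicate 2 or 3 (edgeR adjusted p = 0.0126 and 0.013), and the higher B cell genes numbered 2 without either of these controls.

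T and NK cell genes split as well. Of 15 tested, 2 were called higher (13.3%) and 3 lower (20%), beside 4.49% and 6.55% of all genes. Cd5, a T cell surface inhibitor, rose from 0.40 to 0.759 CPM to 14.2 to 19.6 CPM (log2 fold change 4.90, SE 0.33, edgeR adjusted p = 2.83e-05), while Nkg7, a granule protein of cytotoxic cells, fell from 264, 365 and 179 CPM to 21.4, 32.1, 31.6 and 30.2 CPM (−3.22, SE 0.26, edgeR adjusted p = 8.49e-05). The NHD13 libraries were at 3.45 and 3.41 CPM for Cd5 and at 45.1 and 31.6 CPM for Nkg7. Both calls were kept in each fit that left out 1 library. The 3 lower genes were 1 without control replicate 1 and 2 without control replicate 2 or 3 or labelled replicate 1 or 2. The 2 higher genes were 1 without control replicate 2 or 3 and 3 without labelled replicate 2 or either NHD13 library.

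Of 10 genes of MHC class II presentation, H2-DMa, a peptide loading chain, fell from 203 to 250 CPM to 117 to 126 CPM (−0.93, SE 0.14, edgeR adjusted p = 0.00158), and H2-Oa, a modulator of that loading, rose from 15.3 to 21.1 CPM to 26.5 to 46.9 CPM (1.13, SE 0.24, edgeR adjusted p = 0.009). The H2-Oa call held with all libraries and without labelled replicate 4 only. Reads of the H2 genes may be split among related copies.

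Growth factor receptors changed both ways, with 5 of 25 called higher (20%) and 4 lower (16%), beside 4.49% and 6.55% of all genes. Csf1r, the Csf2rb pair, Il6ra and Ifngr1 rose, and Flt3, Il1r1 and Tgfbr2 were among the genes that fell. Il6ra, the ligand-binding chain for IL-6, went from 8.22, 14.1 and 12.6 CPM to 52.7, 69.6, 43.7 and 38.9 CPM (log2 fold change 2.14, SE 0.26, edgeR adjusted p = 0.000646). Il1r1, the receptor of IL-1, went from 60.1, 90.3 and 82.5 CPM to 12.6, 5.68, 10.5 and 15.6 CPM (−2.81, SE 0.32, edgeR adjusted p = 0.000447) and was at 3.27 and 4.79 CPM in NHD13. Kit, which defines the gate, was at 1775 to 2254 CPM in control and 908 to 1402 CPM in the labelled libraries, and did not pass the test (−0.76, edgeR adjusted p = 0.0561). Il6ra and Il1r1 kept their calls whichever library was left out. Ifngr1 (0.80) and Tgfbr2 lost theirs without any 1 control (edgeR adjusted p = 0.0105 to 0.0272 and 0.0186 to 0.0328), so that 3 members were higher and 2 lower in each of those fits, 3 were higher without labelled replicate 3, and 2 were lower without labelled replicate 1 or 2.

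Of 14 feedback and output genes of RAS-MAPK signalling 2 were called lower and none higher (median log2 fold change −0.86), a number too small to be read against the 6.55% lower over all genes. Spry2, a Sprouty inhibitor of receptor signalling, went from 36.8, 51.9 and 49.5 CPM to 0.414, 0.898, 1.72 and 5.06 CPM (−4.54, SE 0.70, edgeR adjusted p = 0.00197), and Spry4 from 3.31 to 4.70 CPM to a single count in 1 of 4 labelled libraries (edgeR adjusted p = 0.00257). Spry2 kept its call whichever library was left out, and Spry4 lost it without control replicate 2 or labelled replicate 3 (edgeR adjusted p = 0.0101 and 0.0169), which leaves 1 call. The phosphatase Dusp6, the usual readout of ERK activity, was at 115 to 174 CPM in control and at 117 to 152 CPM in the labelled libraries (−0.15, edgeR adjusted p = 0.709), and NHD13 was at 65.3 and 33.4 CPM. Of 15 immediate early genes Fos alone was called (−4.84, edgeR adjusted p = 0.00849), and control replicate 1 was at 531 CPM against 43.9 and 58.9 CPM in the other controls. Without control replicate 1 the log2 fold change of Fos was −2.80 (edgeR adjusted p = 0.0305), and the call was kept only without control replicate 2 or labelled replicate 1. Of 8 Notch and Wnt pathway targets, Rnf43, a Wnt feedback ligase, was called higher (4.18, edgeR adjusted p = 0.00676), from 0.142 to 0.40 CPM in control to 1.49 to 10.1 CPM, but not without any 1 control or labelled replicate 1 or 2 (edgeR adjusted p = 0.0122 to 0.0342), and 2 members were called without either NHD13 library.

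Of 32 interferon-stimulated genes 1 was higher (3.12%) and 2 lower (6.25%), near the 4.49% and 6.55% over all genes (median 0.28). Ddx58, which encodes the RNA sensor RIG-I, fell from 111 to 142 CPM to 31.1 to 57.5 CPM (−1.70, SE 0.25, edgeR adjusted p = 0.0014), and Mx1, an antiviral GTPase, rose from 2.33 to 7.64 CPM to 19.9 to 33.2 CPM (2.35, SE 0.39, edgeR adjusted p = 0.00269) but not without control replicate 1 (edgeR adjusted p = 0.0153). The higher count was 5 without labelled replicate 4, 2 without either NHD13 library and 0 without control replicate 1, and the lower count was 1 without control replicate 1 or 3 or labelled replicate 1, 2 or 3. The interferon-stimulated response element, read on both strands as GAAA, 2 bases and GAAA, was in 14 of the 22 genes of this list with a promoter in the table and in 3.44% of all promoters. Of 16 NF-kappaB genes 2 were higher (12.5%), among them the chemokine Ccl5, which rose from 2.72 to 5.19 CPM to 12.8 to 18.1 CPM (1.97, SE 0.30, edgeR adjusted p = 0.00169) in all fits that left out 1 library. Tnip1, an NF-kappaB inhibitor, was the other (0.98, edgeR adjusted p = 0.00362), and 1 member was called without control replicate 2 or 3 or labelled replicate 2 or 3.

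Adhesion and homing genes moved both ways. Of 26 integrin, selectin and niche adhesion genes 4 were called higher (15.4%) and 7 lower (26.9%), beside 4.49% and 6.55% of all genes. Itgam, the CD11b integrin chain of myeloid cells, rose from 44.5, 41.2 and 50.2 CPM to 424, 352, 477 and 408 CPM (log2 fold change 3.20, SE 0.26, edgeR adjusted p = 7.53e-05). Itga9, an integrin chain for tenascin and VCAM-1, fell from 2.37 to 5.24 CPM to a single count over the labelled libraries (edgeR adjusted p = 0.000915). Itgam, Itga9 and Esam kept their calls in each fit that left out 1 library, but the lower count was 2, 3 and 2 without control replicates 1, 2 and 3 and 2, 3 and 4 without labelled replicates 1, 2 and 3, and the higher count was 2, 2 and 1 without those controls.

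Of 18 chemokine and chemoattractant receptors 2 were higher (11.1%) and 2 lower (11.1%), beside 4.49% and 6.55% of all genes. Ccr1, a receptor of inflammatory chemokines on myeloid cells, rose from 1.19, 3.08 and 1.28 CPM to 108, 104, 85.7 and 101 CPM (5.76, SE 0.55, edgeR adjusted p = 0.000185), with NHD13 at 40.4 and 145 CPM. Cxcr2, the IL-8 type receptor of neutrophils, rose from 3.03 to 4.84 CPM to 34.5 to 62.5 CPM (3.69, SE 0.43, edgeR adjusted p = 0.000466), while S1pr3, a sphingosine-1-phosphate receptor, fell from 35.9 to 39.7 CPM to at most 1.09 CPM (−6.16, SE 0.87, edgeR adjusted p = 0.00128). No labelled library overlapped the controls in these 3 genes, as in every called gene, and none of the calls was lost without any 1 library. The other lower member, S1pr1, was not called without any 1 control or labelled replicate 2, which leaves 1 lower member, and the higher members numbered 4 without labelled replicate 4 and 3 without either NHD13 library.

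Part of the endoplasmic reticulum stress genes rose. Of 21 genes of the unfolded protein response (UPR) 6 were called higher (28.6%) and none lower, beside 4.49% and 6.55% of all genes. The median log2 fold change was 0.70 (0.38 in NHD13 over control). The summed level of the list was 6373 to 6492 CPM in control and 10267 to 15998 CPM in the labelled libraries. Hspa5, the chaperone BiP, rose from 1062, 813 and 961 CPM to 1718, 1896, 1657 and 1397 CPM (0.82, SE 0.17, edgeR adjusted p = 0.00795), Pdia4, a disulfide isomerase, from 240 to 273 CPM to 457 to 550 CPM (0.98, SE 0.14, edgeR adjusted p = 0.00154), and Hsp90b1, the chaperone GRP94, from 544 to 605 CPM to 928 to 1068 CPM (0.77, SE 0.14, edgeR adjusted p = 0.0037). The other called members were Pdia6 (0.79), Pdia3 (0.70) and Xbp1 (0.96), the factor of the IRE1 branch.

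These calls leaned on single libraries. The count was 1, 0 and 0 without control replicates 1, 2 and 3, 3, 1 and 1 without labelled replicates 1, 2 and 3, 4 without either NHD13 library and 12 without labelled replicate 4, with none called in the opposite direction, and the log2 fold change of Hspa5 stayed between 0.72 and 0.91 in the fits in which it was not called. Calr, calreticulin, was at 646 to 800 CPM in control, at 1772 to 2138 CPM in labelled replicates 1 to 3 and at 832 CPM in replicate 4 (1.18, edgeR adjusted p = 0.0178, and 7.33e-05 without replicate 4).

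Promoters of 3 called UPR genes are shown because they carry the ER stress response element, searched as CCAAT, 9 bases and CCACG. The lines give the 250 bases upstream of the start (RefSeq, GRCm38.p6, 5′ to 3′ on the strand of the gene) with each match in capitals, and the second match in Hsp90b1 lies on the opposite strand. The regions are chr2:34771840-34772089 on the plus strand for Hspa5, chr10:86705445-86705694 on the minus strand for Hsp90b1 and chr12:17266339-17266588 on the plus strand for Pdia6.
Hspa5: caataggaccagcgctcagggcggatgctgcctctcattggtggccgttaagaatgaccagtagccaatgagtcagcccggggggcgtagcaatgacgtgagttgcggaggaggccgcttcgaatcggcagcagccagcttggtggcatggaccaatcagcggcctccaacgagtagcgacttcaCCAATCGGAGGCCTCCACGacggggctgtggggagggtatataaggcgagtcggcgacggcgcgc
Hsp90b1: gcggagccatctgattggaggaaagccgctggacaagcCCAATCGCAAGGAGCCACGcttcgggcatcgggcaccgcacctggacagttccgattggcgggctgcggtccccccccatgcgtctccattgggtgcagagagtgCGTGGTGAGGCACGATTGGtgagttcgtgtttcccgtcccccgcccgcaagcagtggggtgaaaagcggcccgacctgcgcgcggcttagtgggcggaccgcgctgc
Pdia6: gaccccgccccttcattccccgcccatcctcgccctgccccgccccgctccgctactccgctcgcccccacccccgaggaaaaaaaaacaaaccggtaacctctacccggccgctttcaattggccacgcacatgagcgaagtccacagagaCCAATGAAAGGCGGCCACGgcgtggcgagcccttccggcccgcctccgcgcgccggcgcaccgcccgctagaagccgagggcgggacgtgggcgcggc
Read on both strands, the element was in 7 of the 19 UPR genes with a promoter in the table, of which 3 were called, and in 39 of all 32851 promoters (0.119%). The 4 others were Calr, Canx, Dnajc3 and Creld2, none of which was called.

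Pmaip1, the BH3-only protein NOXA, went from 2.25, 1.90 and 1.88 CPM to 42.5, 53.7, 64.5 and 121 CPM (log2 fold change 5.13, SE 0.44, edgeR adjusted p = 0.000112), with NHD13 at 21.6 and 38.1 CPM, and kept its call whichever library was left out. Of 14 Bcl2 family genes 4 were higher (28.6%) and none lower, beside 4.49% and 6.55% of all genes. All 4 are known to promote cell death: Pmaip1, Bid (1.22), Bcl2l11, which encodes BIM (1.02), and Bax (0.87). The survival gene Bcl2 was at 146 to 207 CPM in control and 253 to 340 CPM in the labelled libraries and did not pass the test (0.72, edgeR adjusted p = 0.0148), but was called without labelled replicate 4 (0.81, edgeR adjusted p = 0.00287), which brings the higher members to 5. The count was 2, 2 and 1 without control replicates 1, 2 and 3 and 2 without labelled replicate 1 or 3. Of 19 p53 targets Pmaip1, Bax and Trp53inp1 were higher (15.8%) and 1 was lower (5.26%), Perp (−3.88, edgeR adjusted p = 0.00922). The higher count was 1 without any 1 control or labelled replicate 2 or 3, the Perp call was lost without any 1 control, labelled replicate 2 or 3 or NHD13 replicate 2 (edgeR adjusted p = 0.0102 to 0.038), and 2 were lower without labelled replicate 4. None of 10 heat shock genes was called by edgeR or DESeq2, and 0 had an unadjusted p under 0.05.

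With all libraries edgeR called no cell cycle gene. None of 24 G1 and replication genes (median log2 fold change −0.24) and none of 18 G2 and M phase genes (−0.22) was called by edgeR, and without labelled replicate 4 there were 2 and 1 lower ones. At an unadjusted p under 0.05, 2 were higher and 4 lower in the first list, and 1 higher and 4 lower in the second. DESeq2 called 1 higher and 2 lower in the first list and none in the second. None of 22 Fanconi and homologous repair genes was called (−0.15), also in each fit that left out 1 library other than labelled replicate 4, without which 4 were lower. At an unadjusted p under 0.05, 5 repair genes were lower, and DESeq2 called 2 of the list lower.

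Housekeeping lists had medians near 0. Of 83 cytosolic ribosomal protein genes tested, the low paralogs Rpl3l and Rps4l were called higher and lower (median log2 fold change 0.05). The summed level of all 85 genes of the list was 39494 to 46393 CPM in control and 21977 to 56957 CPM in the labelled libraries. The higher count was 5 without labelled replicate 4, and neither was called without labelled replicate 2 or 3 or any 1 control. Of 80 oxidative phosphorylation genes only Ndufa4, a subunit of the respiratory chain, was called, falling from 223 to 323 CPM to 78.9 to 126 CPM (−1.45, SE 0.20, edgeR adjusted p = 0.00111), while 2 were higher without labelled replicate 4 and 1 without either NHD13 library. Of 20 glycolysis genes Hk3 and Aldoa (0.80, edgeR adjusted p = 0.00331) were higher (10%, beside 4.49% of all genes). Only 1 was higher without any 1 control or labelled replicate 2, while 1 was lower without labelled replicate 4.

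Cholesterol synthesis genes were lower in 4 of 21 (19%) and higher in none, beside 6.55% and 4.49% of all genes (median −0.35). Sqle, squalene epoxidase, fell from 74.5, 65.9 and 79.5 CPM to 41.6, 36.1, 37.1 and 36.7 CPM (−0.95, SE 0.13, edgeR adjusted p = 0.000974) and was at 37.1 and 40.9 CPM in NHD13, and Stard4, a sterol transfer protein, fell from 67.0 to 69.7 CPM to 18.8 to 24.5 CPM (−1.65, SE 0.18, edgeR adjusted p = 0.00038). Both calls were kept whichever library was left out. The demethylase Cyp51 (−0.88) and the reductase Dhcr7 (−0.94) were the others, and the count was 2 without control replicate 1 or 3, labelled replicate 1 or 2 or either NHD13 library.

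Genes recurrently mutated in myelodysplastic syndrome were called in 4 of 29 cases, 3 higher (10.3%) and 1 lower (3.45%), beside 4.49% and 6.55% of all genes. These few calls are not read as a trait of the list. Idh1, the cytosolic isocitrate dehydrogenase, rose from 60.4 to 63.1 CPM to 158 to 190 CPM (1.52, SE 0.14, edgeR adjusted p = 0.000185), and Runx1, a core haematopoietic factor, from 73.3 to 81.5 CPM to 127 to 204 CPM (1.17, SE 0.18, edgeR adjusted p = 0.00169), with NHD13 at 143 and 164 CPM. Runx1 lost its call without any 1 control (edgeR adjusted p = 0.0119, 0.0106 and 0.01). Cebpa and Flt3, described above, were the other called members. The count of higher members was 2 without any 1 control and 5 without labelled replicate 4, and that of lower members was 0 without any 1 control or labelled replicate 1 or 2 and 2 without replicate 4.

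**Figure D4:**
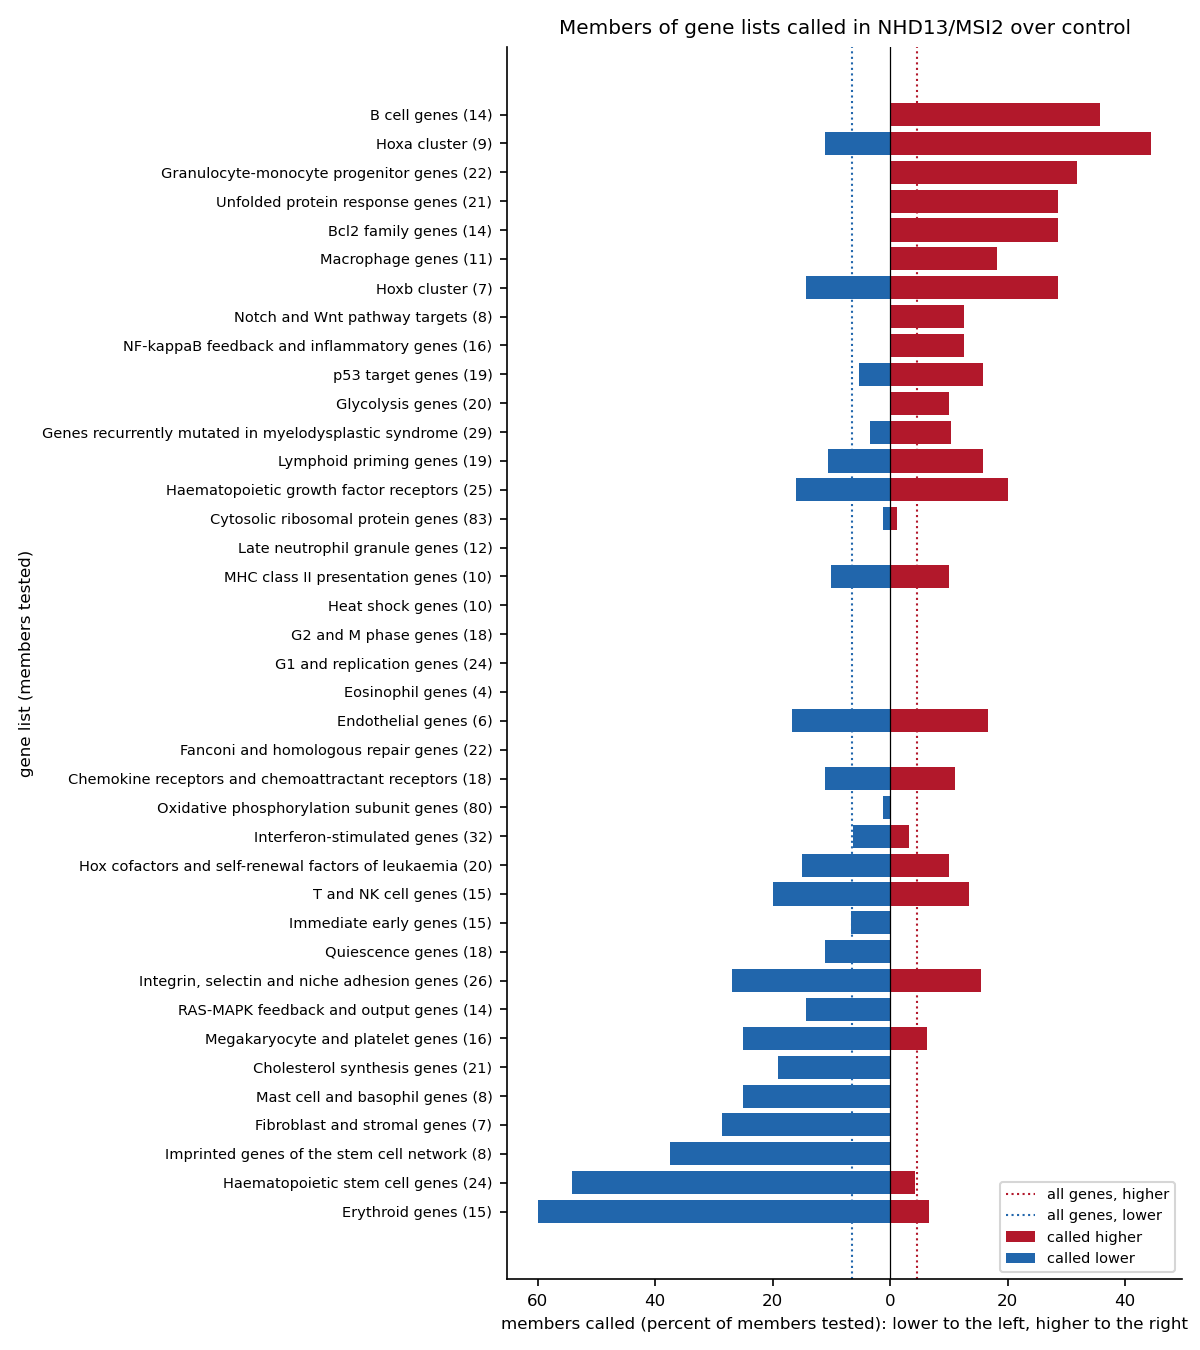
Share of the members tested that were called higher (red, to the right) or lower (blue, to the left) over control in the labelled NHD13/MSI2 libraries, for 39 gene lists with the number of members tested in parentheses. Dotted lines mark the shares over all genes tested, 4.49% higher and 6.55% lower. Erythroid, HSC and imprinted genes extend furthest to the left, and B cell, Hoxa, Hoxb, GMP, UPR and Bcl2 family genes to the right.

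The label of the cells was checked against their markers. Ptprc, the pan-leukocyte antigen CD45, was at 518 to 545 CPM in control and 541 to 804 CPM in the labelled libraries. Ly6a, which encodes Sca1, was at 79.3 to 89.8 CPM in control and at 375, 254, 312 and 98.6 CPM in labelled replicates 1 to 4 (1.60, edgeR adjusted p = 0.0167, and 0.000177 without replicate 4). Cd34, the sialomucin that divides LSKs into stem and progenitor cells, fell from 1566 to 1650 CPM to 588 to 894 CPM (−1.07, SE 0.20, edgeR adjusted p = 0.00457), but the call was lost without any 1 control or labelled replicate 1 or 2 (edgeR adjusted p = 0.015 to 0.0217). The gate markers were present in all libraries. Of 5 lineage genes that the gate should leave low, 1 was called higher, Itgam, and 1 lower, whichever library was left out.

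Markers of other cells moved with some of these groups, and their part in the results was not tested. The summed level of 13 macrophage genes, tested or not, was 65.7 to 95.4 CPM in control and 215 to 322 CPM in the labelled libraries. Cd68, a lysosomal glycoprotein of macrophages and myeloid progenitors, made up most of that sum in the labelled libraries. Its level rose from 25.1, 27.8 and 19.8 CPM to 196, 220, 162 and 261 CPM (3.11, SE 0.21, edgeR adjusted p = 3.05e-05). Of the 11 macrophage genes tested 2 were called higher (18.2%, beside 4.49% of all genes), but only Cd68 was without any 1 control or labelled library. Itgam encodes Mac1, which the study's antibody list for stem cell staining does not name among the lineage markers. The B cell list summed to 50.4 to 71.6 CPM in control and to 317 to 511 CPM in the labelled libraries, and the late neutrophil list to 1025 to 2738 and 264 to 712 CPM. Of 6 endothelial genes, Pecam1, an adhesion molecule also found on progenitors, rose from 150 to 173 CPM to 437 to 558 CPM (1.63, SE 0.15, edgeR adjusted p = 0.000131), while Emcn, a sialomucin of endothelium and HSCs, fell from 15.8 to 33.7 CPM to at most 0.399 CPM (−7.24, SE 0.82, edgeR adjusted p = 0.000427). Of 7 stromal genes 2 were lower (28.6%, beside 6.55% of all genes). Among them Pdgfrb, a receptor of mesenchymal cells, fell from 40.7 to 80.8 CPM to 1.30 to 7.24 CPM (−3.84, SE 0.50, edgeR adjusted p = 0.000835). Pdgfrb kept its call whichever library was left out, and the stromal count was 1 without any 1 library other than labelled replicate 4.

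**Figure D5:**
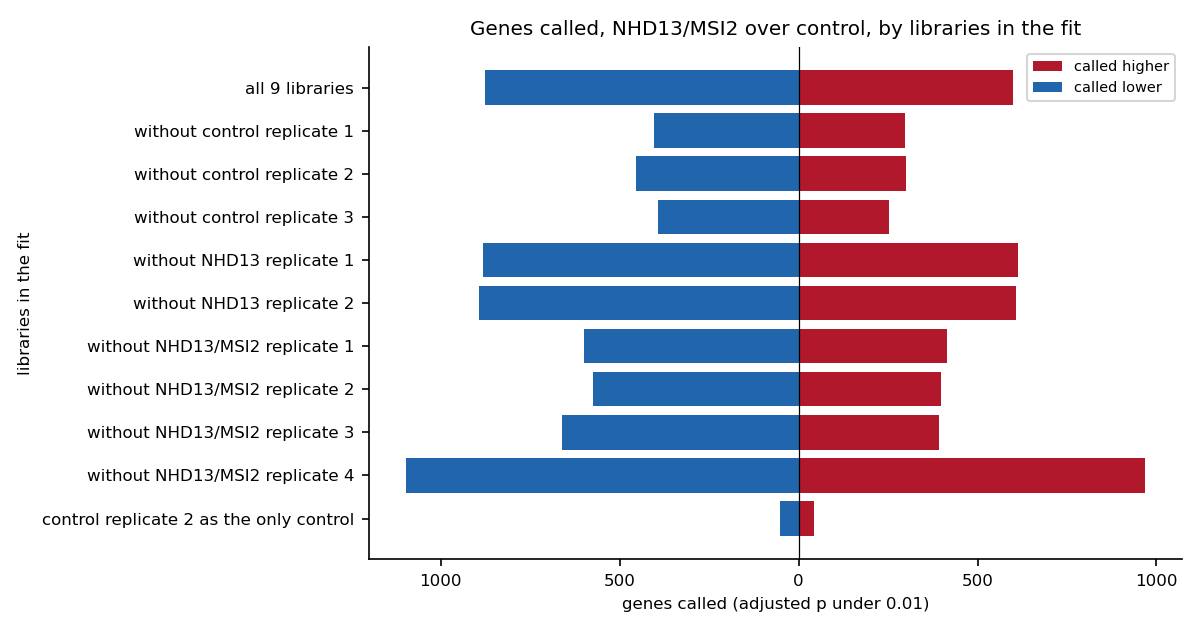
Genes called higher (red, to the right) and lower (blue, to the left) over control in the labelled NHD13/MSI2 libraries, shown by the libraries in the fit. The bars run from 599 and 875 genes with all 9 libraries to 43 and 52 with control replicate 2 as the only control, and reach 968 higher genes without labelled replicate 4.

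The NHD13 libraries were fitted in the same model, and both comparisons share the 3 control libraries. Over control, 138 genes were called in NHD13 (1.03% of those tested), 110 higher (0.824%) and 28 lower (0.21%), beside 599 and 875 in the labelled libraries, with 2 against 4 libraries. In NHD13 the median log2 fold change was −0.21 for the HSC list, −0.75 for the erythroid list and 0.58 for the megakaryocyte list, beside −2.83, −3.08 and −1.87 in the labelled libraries. In the direct contrast of the labelled libraries over NHD13, 423 genes were called (3.17%).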

How the data were processed

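The deposited table held 1 raw read count per gene for each of 9 LSK libraries, and per the labels the submitters' processing notes name STAR, HTSeq, DESeq and the mm9 build. The counting settings, strand included, are not given in the sources used here. The names of the 13 March genes had been turned into 11 dates, so that the names after them sat 2 rows too high. The 11942 names affected were moved down 2 rows, and the 13 rows at the dates, 0.0253 to 0.0323% of a library, were left out, as were 2 rows without a name (0.0031 to 0.0082%). The shift was checked on ribosomal protein genes and on Xist and Uty.

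Libraries were grouped by their labels. Counts were fitted in edgeR 4.0.16 (R 4.3.3) over all 9 libraries with group as the only term, after filterByExpr and with TMM factors, and genes were called at a Benjamini-Hochberg adjusted p under 0.01 by the two-sided quasi-likelihood test. In simulated counts for this comparison (13079 genes tested), 67 of 100 genes changed 4-fold and 5 of 100 changed 2-fold were recovered. Where a group had no count, a fold is a bound against 3 counts per library, and intervals of ratios (95%, exact) cover counting error only.

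The members, the 41 gene lists and the motifs were chosen with earlier results of these data known, and the motifs after the values of their genes had been seen. Genes were named by rule: the 12 that changed most in each direction among called genes averaging 50 counts or more without overlap between groups, of which some are described, up to 4 called members of each list each way and members whose role the text needs, the targeted and sex-linked genes and the genes next to the threshold. Gene positions come from GENCODE on GRCm38 and not from the authors' build, and 95.6% of the symbols tested matched. Alternatives were DESeq2 1.42.0, RLE factors, other filters and thresholds (glmTreat against 1.5-fold among them), a robust fit, the 7 libraries alone, a replicate block, control replicate 2 as the only control, genes on X and Y left out, names as deposited, and each library left out in turn. Values of a few list members are not reported here, though the counts over the lists include them.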

Additional observations from a re-analysis of the deposited data

Results flagged for a closer look

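In 22 of the 168 genes examined, 1 of the 4 libraries labelled NHD13/MSI2 lay apart from the other 3. Its gap to its nearest neighbour, as a share of the range, was above Dixon's 95% critical value for 4 values. Such a gap can be small in CPM, as for Eif2s3y (180.4 against a median of 177.2 CPM). Chance alone marks about 1 in 20 such groups. Where 1 library held the only count, as for Zfp521, Itga9 and Spry4, the ratio is 1 by definition and that rate does not apply. Replicate 4 was the library apart in 10 genes, replicate 1 in 6, replicate 3 in 4 and replicate 2 in 2.

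In replicate 4 the targeted genes stood out. Nup98 was at 1004 CPM there and Msi2 at 241.4 CPM, both above the other labelled libraries. Replicate 4 was also highest for Zfpm2 (96.57 CPM), Hoxb8 (7.334 CPM), Ddx58 (57.5 CPM), Uty (130.1 CPM), Tek (1.493 CPM) and Mob3c (20.31 CPM), and lowest for H2-Oa (26.54 CPM) and Itgb7 (34.66 CPM).

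Replicate 1 was apart for 4921525O09Rik (20.48 CPM), Lax1 (7.655 CPM), Fos (16.91 CPM) and Hk3 (276.5 CPM), and it held the only count of Zfp521 and of Itga9 (0.05172 CPM each). Replicate 2 was apart for Hoxb7 (12.22 CPM) and Eif2s3y (180.4 CPM). Replicate 3 was apart for Tdrd9 (92.89 CPM), Ddx3y (17.6 CPM) and Slamf1 (1.855 CPM), and held the only count of Spry4 (0.04525 CPM).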

How the results depend on the processing

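With all libraries 1474 genes were called, 599 higher and 875 lower, and 124 calls fell on the list members together. DESeq2 called 2589 (1102 higher, 1487 lower, 194 in the lists), of which 1472 were shared, and an adjusted p under 0.05 gave 2745 (1140, 1605 and 194). Testing against a 1.5-fold change gave 921 (323 higher, 81 in the lists). With control replicate 2 as the only control 95 were called (43, 52 and 12), a fit in which the lone control is assumed to vary like the other groups. Leaving out 1 library at a time gave 647 to 2066 calls, 253 to 968 higher, 394 to 1098 lower and 67 to 165 in the lists, with the lowest values without control replicate 3 and the highest without labelled replicate 4. RLE factors (1456), a robust fit (1454), keeping all genes with a count (1506), keeping genes averaging 50 counts or more (1270), the 7 libraries alone (1602) and genes on X and Y left out (1383) stayed within 1.5 times the count with all libraries. No gene called in both changed direction under these settings. With the names as deposited 1476 rows were called, but only 807 names were called in the same direction in both fits. Of the 1474 names called after the move, 236 had the opposite sign with the names as deposited, whether or not they were called there. That setting was run for the counts over all genes only.

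Of the 168 genes examined, 141 were called. The one gene whose direction turned was Ddx3y, at a log2 fold change of −3.21 (edgeR adjusted p = 0.241) with all libraries, −3.90 to 7.48 over the fits that left out 1 library and 7.48 without control replicate 2 (edgeR adjusted p = 0.00351), the only control library with Ddx3y above 1 CPM.

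Replicate numbers did not pair the libraries. The correlations of same-numbered control and labelled libraries were −0.061, 0.061 and −0.049, and not every library correlated best with its own number. With the replicate number as a block 1407 genes were called (653 higher, 754 lower), of which 1098 were shared.

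Depth limits genes at the floor of 3 counts, 0.12 to 0.195 CPM, and 3 and 4 libraries limit the calls of changes under 4-fold.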

Other observations

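Y-linked genes did not move together in the libraries labelled NHD13/MSI2. Eif2s3y, a translation factor subunit, was at 177 to 180 CPM and Uty, a histone demethylase paralog, at 102 to 130 CPM there, beside 138 and 111 CPM in control replicate 2, whereas the helicase gene Ddx3y was at 3.83, 5.98, 17.6 and 5.52 CPM in labelled replicates 1 to 4, at 229 CPM in control replicate 2 and at 172 and 250 CPM in the NHD13 libraries. The cause was not tested.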
